A study of Mus musculus with 6 samples.

Results

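Ppbp, Pf4 and F13a1 are 3 genes best known from platelets, and they were measured here in mouse macrophages among 46603 gene rows per library. Ppbp encodes pro-platelet basic protein, the precursor of the neutrophil-attracting chemokine CXCL7. Pf4 encodes platelet factor 4, the chemokine CXCL4. F13a1 encodes the catalytic A chain of coagulation factor XIII, a transglutaminase. The 3 genes were chosen by name with their values in these same libraries already known, so their differences between media are given as descriptions with no test. All 3 symbols matched 1 Ensembl identifier each and passed the filter on low counts.

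The cells were bone marrow-derived macrophages from C57BL/6/J mice aged 7 weeks. They were grown in medium holding 20% medium from L929 cells, a fibroblast line that secretes macrophage growth factor, and were seeded on day 6 at 800000 cells per well. After another 6 h they received medium conditioned by cancer cells. In 3 libraries this medium held its lipids (with lipids), and in 3 it did not (without lipids). Both groups therefore shared strain, culture and exposure to cancer cell products, and differed by label only in the lipids. The sources used here give neither the cancer cell line, nor the method of lipid removal, the time of exposure or the number of mice. Macrophages without conditioned medium were not analysed here.

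CXC chemokines are small secreted proteins that bind heparin-like sugars and G protein-coupled receptors. Platelets store CXCL4 and CXCL7 in alpha-granules and release them on activation. CXCL7 needs removal of its amino-terminal part to become an active ligand of CXCR2, whereas CXCL4 binds proteoglycans strongly and acts weakly on CXCR2. Inside cells factor XIII exists as a dimer of A chains, and once activated it cross-links fibrin and matrix proteins. Macrophages are themselves a source of F13a1 and Pf4 transcripts in mice, so these names do not mark platelets alone.

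Ppbp and Pf4 are neighbours on chromosome 5 of GRCm38, on the plus strand. Ppbp (ENSMUSG00000029372) spans 90768518 to 90770063 and Pf4 (ENSMUSG00000029373) spans 90772435 to 90773383, with 2371 bases between them. F13a1 (ENSMUSG00000039109) lies on the minus strand of chromosome 13, from 36867178 to 37050244. Exons cover 1083 bases in 3 blocks for Ppbp, 721 bases in 3 blocks for Pf4 and 6739 bases in 18 blocks for F13a1. No exon of the 3 genes shares bases with another annotated gene among the counted identifiers. Their promoter windows are shown because the 3 genes were higher together in the same libraries. The windows come from RefSeq on GRCm38.p6 and run 5′ to 3′ along each gene's strand, from 250 bases before the start to 50 bases after it. They cover chr5:90768268-90768567 for Ppbp, chr5:90772185-90772484 for Pf4 and chr13:37050195-37050494 for F13a1.
Ppbp: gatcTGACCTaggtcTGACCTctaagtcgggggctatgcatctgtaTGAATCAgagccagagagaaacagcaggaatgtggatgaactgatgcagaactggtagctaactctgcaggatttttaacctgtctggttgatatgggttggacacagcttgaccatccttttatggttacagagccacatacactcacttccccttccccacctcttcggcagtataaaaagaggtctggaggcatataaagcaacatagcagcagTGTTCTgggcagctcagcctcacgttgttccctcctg
Pf4: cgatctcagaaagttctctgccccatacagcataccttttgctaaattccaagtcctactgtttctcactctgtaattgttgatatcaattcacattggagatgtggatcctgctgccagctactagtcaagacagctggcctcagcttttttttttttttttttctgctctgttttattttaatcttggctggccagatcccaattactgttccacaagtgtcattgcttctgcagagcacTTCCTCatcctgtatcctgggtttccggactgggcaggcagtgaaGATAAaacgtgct
F13a1: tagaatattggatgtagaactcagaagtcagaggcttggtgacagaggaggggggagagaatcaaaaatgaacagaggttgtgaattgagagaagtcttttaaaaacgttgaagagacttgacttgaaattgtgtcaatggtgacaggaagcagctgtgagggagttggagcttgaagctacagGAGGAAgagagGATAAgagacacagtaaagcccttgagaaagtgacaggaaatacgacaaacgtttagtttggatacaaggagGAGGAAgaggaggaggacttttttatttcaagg
Capitals mark every match, on either strand, to 1 of 5 short motifs: GATAA (GATA factors), GAGGAA (ETS factors and PU.1), TGANTCA (AP-1), AGGTCA (a nuclear receptor half-site) and AGAACA (a steroid receptor half-site).

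No motif of the 5 was found in all 3 windows. GATAA was found in the Pf4 window, at position 38 after the start, and in the F13a1 window, at position -55. It occurs in 25.4% of the 32851 RefSeq windows of this length. GAGGAA was found in the same pair, on the minus strand at -8 in Pf4, and at -66 and 18 in F13a1, and occurs in 28.3% of all windows. The Ppbp window held TGANTCA at -204 (7.81% of windows), AGGTCA on the minus strand at -246 and -235 (16.3%), and AGAACA on the minus strand at 14 (19%). In F13a1, RefSeq gives a second window whose start lies 1031 bases away, which is not shown and which held 1 match, to GAGGAA. These are matches of letters only, and no binding was measured.

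Libraries held 20778651 to 25323053 counts with lipids and 19429022 to 22330119 counts without lipids. Values are counts per 1000000 after scaling (CPM), and 3 counts, the upper limit behind a count of 0, correspond to 0.115 to 0.159 CPM, for counting error only. All 10 macrophage markers, among them Adgre1, Csf1r and Lyz2, were present and summed to 29541 to 29901 CPM with lipids and 29836 to 34792 CPM without lipids. Most of this was Lyz2, at 19627 to 19862 CPM with lipids and 20706 to 24751 CPM without lipids. The first principal component of log2 CPM (48.6% of variance) separated the groups. Replicate 1 without lipids stood apart on the second (21.8%), at -22.96 where the other 5 lay between -1.17 and 13.95. With 3 libraries a group, p-values measure only how far these libraries differ among themselves, possibly for technical reasons, since the labels name no separate cultures or mice.

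Ppbp was about 4 times as high with lipids as without. It had 10.2, 11.7 and 12.2 CPM in the libraries with lipids, against 3.16, 2.65 and 2.62 CPM without lipids. The groups did not overlap, and the lowest library with lipids was 3.22 times the highest without. The mean was 11.4 ± 1.07 CPM with lipids and 2.81 ± 0.301 CPM without lipids (SD, n = 3 each). On the log2 scale the change, with lipids minus without, was 2.02 (SE 0.13). This was the largest positive log2 fold change of the 12767 genes tested. The raw counts were 225, 305 and 261 with lipids and 60, 50 and 57 without lipids, so that counting alone gives a spread of 6.16% and 13.4% of the mean, beside measured spreads of 9.36% and 10.7%.

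F13a1 was between 3 and 4 times as high with lipids. It had 10.6, 11.4 and 10.6 CPM with lipids, against 2.68, 2.76 and 3.63 CPM without lipids, and the groups did not overlap. The mean was 10.9 ± 0.463 CPM with lipids and 3.02 ± 0.526 CPM without lipids (SD, n = 3 each). The log2 change of 1.83 (SE 0.13) was the 3rd largest of all tested genes. Raw counts were 234, 296 and 226 with lipids and 51, 52 and 79 without lipids. Replicate 3 without lipids was the highest of its group, and its removal gave a log2 fold change of 2.0.

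Pf4 differed less in ratio and most in amount. It had 420.8, 404.0 and 416.2 CPM with lipids, against 226.2, 254.8 and 218.7 CPM without lipids, again with no overlap. The mean was 414 ± 8.67 CPM with lipids and 233 ± 19.1 CPM without lipids (SD, n = 3 each), or 1.77-fold and 0.83 (SE 0.07) on the log2 scale. It ranked 149th among positive changes. The difference of the means was 180.4 CPM for Pf4, 8.57 CPM for Ppbp and 7.83 CPM for F13a1. Counting error is small for Pf4, at 1.02% of the mean with lipids and 1.47% without lipids, and the measured spread was 2.1% and 8.17%.

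**Figure D1:**
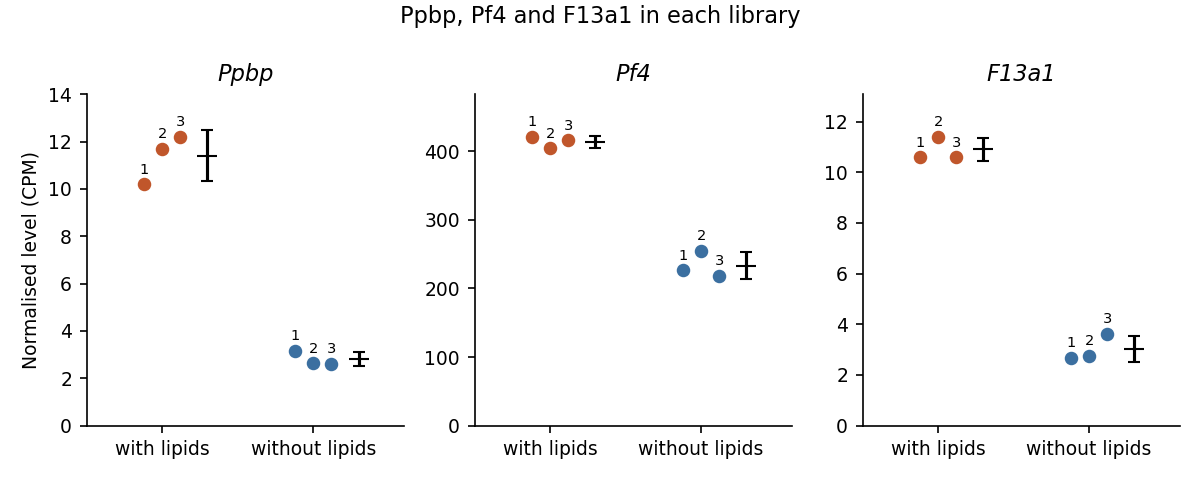
Normalised level in CPM of Ppbp, Pf4 and F13a1, each in its own panel, with 1 point per library labelled by replicate number and the mean ± SD beside each group of 3. In every panel the 3 libraries with lipids lie above the 3 without lipids, with the lowest at 3.22, 1.59 and 2.91 times the highest without lipids for Ppbp, Pf4 and F13a1.

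As the contrast was known when the genes were chosen, the next counts are descriptive. All 3 genes had every library with lipids above every library without lipids, a pattern held by 14.7% of all tested genes. Across all genes, edgeR's quasi-likelihood test at a Benjamini-Hochberg adjusted p of 0.05 called 585 genes (4.58%) higher and 877 (6.87%) lower with lipids. A log2 fold change of at least 1 was seen for 68 genes (0.533%), Ppbp and F13a1 among them, and the median over all tested genes was -0.003. When libraries were scaled by their totals alone, 1241 genes were higher and 596 lower, and the 3 genes had log2 fold changes of 2.1 (Ppbp), 0.90 (Pf4) and 1.91 (F13a1). When replicate 1 without lipids was left out, the counts were 1566 and 1975 and the log2 fold changes 2.11, 0.81 and 1.76 in the same order. Leaving out any library with lipids, or replicate 2 without lipids, gave 219 to 263 higher and 423 to 488 lower genes. In bulk RNA, fewer cells that express a gene and less RNA per cell cannot be told apart.

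**Figure D2:**
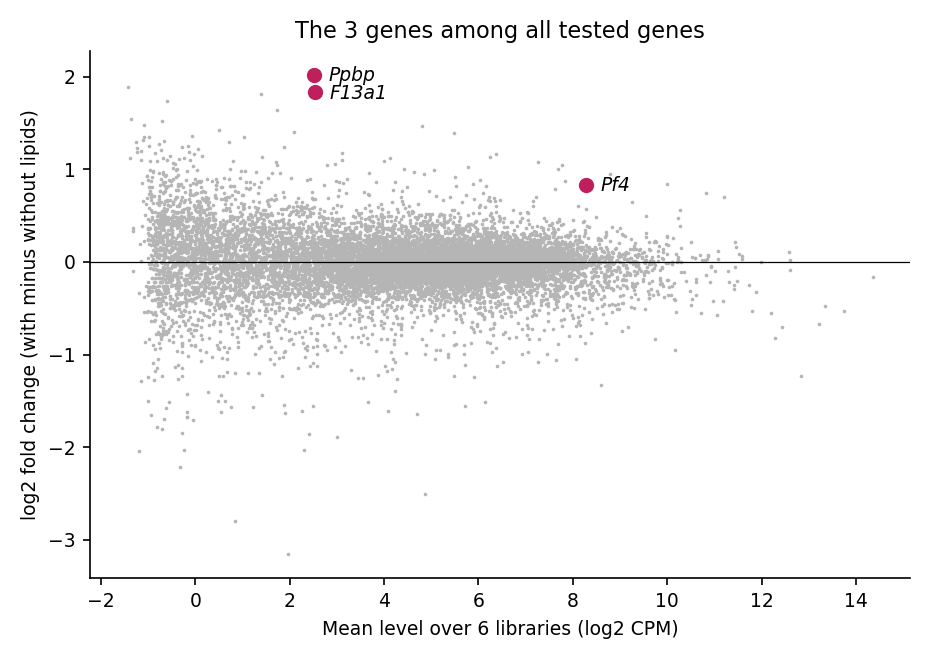
Log2 fold change (with minus without lipids) against mean log2 CPM over the 6 libraries, 1 grey point per tested gene (n = 12767), with Ppbp, Pf4 and F13a1 in red. Ppbp, at 2.02, is the topmost point, F13a1 lies just under it at 1.83, and Pf4 lies far to the right at 0.83.

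Levels of different genes can be compared only per length of transcript, here CPM per 1000 bases of exon. On this scale Pf4 stood at 574 ± 12.0 with lipids and 324 ± 26.4 without lipids, above 99.7% and 99.2% of tested genes. Ppbp stood at 10.5 ± 0.984 with lipids and 2.59 ± 0.278 without lipids, above 67.1% and 33.2% of genes. F13a1 was the lowest, at 1.61 ± 0.0687 with lipids and 0.449 ± 0.078 without lipids, above 25.2% and 11.3%. The exon length sums all annotated transcripts, so a gene with long minor forms is placed lower than its main form would be. The median over all tested genes was 5.48 with lipids and 5.52 without lipids.

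The ratio of Pf4 to Ppbp per length was 62.1, 51.7 and 51.2 with lipids, against 107.6, 144.3 and 125.4 without lipids. The groups did not overlap, so the pair of neighbouring genes did not keep a fixed proportion. The ratio of Pf4 to F13a1 was 371.5, 331.6 and 367.6 with lipids, against 787.9, 863.1 and 563.2 without lipids. The ratio of Ppbp to F13a1, genes on different chromosomes, overlapped between groups, at 5.98, 6.41 and 7.19 with lipids and 7.32, 5.98 and 4.49 without lipids. Within the group without lipids each gene was highest in another library. Ppbp deviated by 0.17 log2 from its group mean in replicate 1, Pf4 by 0.13 in replicate 2 and F13a1 by 0.27 in replicate 3.

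The genes closest in pattern were found as the smallest root mean square difference of centred log2 CPM over the 6 libraries, among 11613 other protein-coding genes. For Ppbp they were Stxbp6, a regulator of vesicle fusion (0.237), Trem1, an activating myeloid receptor (0.292), and Pilrb1, a paired immunoglobulin-like receptor with a near-identical copy, Pilrb2 (0.347). F13a1 was nearer to Ppbp than any of these, at 0.227. For F13a1 the nearest were Lifr, the receptor for leukaemia inhibitory factor (0.202), Aif1l (0.314) and Mrvi1 (0.321). For Pf4 they were Spint1, a membrane-bound protease inhibitor (0.051), the orphan receptor gene Gpr85 (0.073) and Cytip, which binds cytohesin (0.077). Pf4 lay farther from either: 10503 of the 11613 genes were nearer to Pf4 than Ppbp was (0.596), and 9498 were nearer than F13a1 was (0.533). From the other side, only 62 genes were nearer to Ppbp than Pf4 was, and 69 were nearer to F13a1 than Pf4 was. The measure is not scaled for the size of a change, so these counts depend on that size. The difference between media, for which the 3 genes were chosen, enters each likeness.

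The platelet names raised the question of whether other megakaryocyte and platelet genes were present. Of 22 such markers, 8 passed the filter, 3 fell and 0 rose with lipids (median log2 fold change -0.14), beside 6.87% and 4.58% of all tested genes. At an unadjusted p of 0.05 edgeR placed 1 higher and 4 lower, and DESeq2 and limma-voom, adjusted, gave 0 higher. Vwf, von Willebrand factor, had 39.7, 36.9 and 39.8 CPM with lipids, against 80.0, 94.2 and 100.8 CPM without lipids, a log2 fold change of -1.24 (edgeR adjusted p = 1.43e-05, SE 0.09). Itgb3, the beta chain of the fibrinogen receptor that osteoclasts also use, had 5.34, 5.00 and 4.49 CPM with lipids, against 9.42, 10.4 and 8.92 CPM without lipids, a change of -0.95 (edgeR adjusted p = 0.000547, SE 0.12). P2ry1, an ADP receptor, changed by -0.53 (edgeR adjusted p = 0.00448, SE 0.09). In all 3 the libraries with lipids lay below those without lipids, as they did for 15.8% of all tested genes. The list did not run one way: Cavin2, a caveolar protein gene, was at 0.77 (edgeR adjusted p = 0.12) with 0.633, 0.846 and 0.655 CPM with lipids, against 0.421, 0.371 and 0.46 CPM without lipids. Its groups, and those of Gp1ba, did not overlap and were in the order of Ppbp, Pf4 and F13a1, as for 14.7% of all tested genes. Clec1b, the receptor CLEC-2, was at 0.68 (edgeR adjusted p = 0.252) with groups that overlapped, and Gng11 at -0.49 (edgeR adjusted p = 0.0808) with groups that did not.

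Several glycoprotein and tubulin markers of megakaryocytes and platelets were near 0. Summed over the 3 libraries with and the 3 without lipids, Gp1bb had 0 and 2 counts, Gp5 0 and 1, Gp6 1 and 0, Gp9 1 and 1, Mmrn1 0 and 3 and Tubb1, a platelet tubulin, 1 and 5. Gp1ba, which encodes the chain of that receptor complex that binds von Willebrand factor, had 109 and 69 counts and missed the threshold, with a log2 change of 0.43 (edgeR adjusted p = 0.195, SE 0.20). Treml1, a granule receptor, averaged 3.77 ± 0.147 CPM with lipids and 3.23 ± 0.522 CPM without lipids (SD, n = 3 each), at 0.21 (edgeR adjusted p = 0.415). Selp, P-selectin of the granule membrane, lay under the filter with 11, 12 and 5 counts with lipids and 2, 2 and 3 without lipids. It was called higher in 3 refits by edgeR: at 1.73 with the filter off (adjusted p = 0.0371), at 1.97 when replicate 3 with lipids was left out (adjusted p = 0.0421) and at 1.67 when replicate 1 without lipids was left out (adjusted p = 0.0487). The summed level of the list was 62.3 to 64.6 CPM with lipids and 111.9 to 132.9 CPM without lipids, most of it Vwf.

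**Figure D3:**
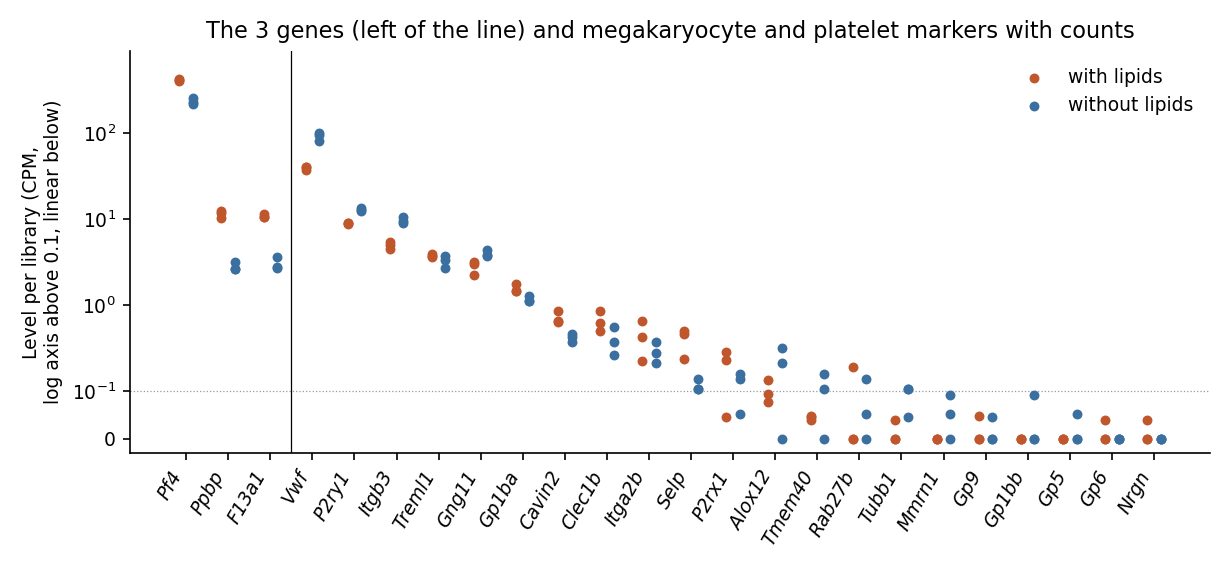
Level per library in CPM (log axis above 0.1, linear below) of Pf4, Ppbp and F13a1, left of the line, and of the listed markers with at least 1 count, in falling order, with libraries with lipids to the left of those without lipids for each gene. Vwf, P2ry1 and Itgb3 lie lower with lipids, and the markers on the right lie at or near 0.

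Of 12 transcription factors that act in megakaryocytes, 2 of 8 tested rose and 0 fell (median 0.12), beside 4.58% and 6.87% of all tested genes. Also, 0 fell at an unadjusted edgeR p of 0.05, and with DESeq2 or limma-voom. Fli1, an ETS factor, changed by 0.23 (edgeR adjusted p = 0.0297) and Etv6, an ETS repressor, by 0.31 (edgeR adjusted p = 0.0204). Both calls were lost when replicate 2 or 3 with lipids, or replicate 2 without lipids, was left out. Gata1, the erythroid and megakaryocyte GATA factor, had 0 counts with lipids and 3 without lipids over 3 libraries each, and Gata2 had 2 and 2. Nfe2, which drives late platelet formation, had 24 and 15 counts and lay under the filter.

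Genes of alpha-granule cargo and granule formation moved both ways. Of 20, 16 were tested, 3 rose and 5 fell (median -0.16), beside 4.58% and 6.87% of all tested genes. When 1 library was left out, 1 to 3 rose and 2 to 8 fell, with 8 in the refit lacking replicate 1 without lipids and 1 risen in that lacking replicate 1 with lipids. With library totals alone 3 fell. Thbs1, the matrix protein thrombospondin 1, rose by 0.60 (edgeR adjusted p = 0.000562) and Srgn, the granule proteoglycan serglycin that holds CXCL4 in platelets, by 0.25 (edgeR adjusted p = 0.0175). Vipas39, a partner of Vps33b in granule formation, changed by -0.58 (edgeR adjusted p = 0.00011), the tetraspanin Cd9 by -0.47 (edgeR adjusted p = 0.000705) and the growth factor Igf1 by -0.26 (edgeR adjusted p = 0.0108). The call for Srgn was lost without any 1 library with lipids or replicate 2 without lipids and that for Igf1 without replicate 2 or 3 with lipids and with library totals alone. Fga, Fgb and Fgg, the fibrinogen chains that factor XIII cross-links, had 0 counts in all 6 libraries.

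Around Ppbp and Pf4 lies a cluster of CXC chemokine genes, and edgeR called none of its other tested genes higher. Of 17 other genes within 250 kb, 5 were tested, 0 rose and 2 fell, beside 4.58% and 6.87% of all tested genes. Another 10 had 0 counts in every library. Cxcl5, which starts 9.2 kb before Ppbp, was at -0.06 (edgeR adjusted p = 0.936, SE 0.35), and Cxcl3, 17.6 kb after it, at 0.27 (edgeR adjusted p = 0.60, SE 0.28). Cxcl1, 122.7 kb away, had 1.81, 2.58 and 2.34 CPM with lipids, against 4.10, 5.25 and 4.0 CPM without lipids, a change of -0.98 (edgeR adjusted p = 0.00532, SE 0.18). Cxcl2, at 135.4 kb, had 9.82, 8.81 and 9.41 CPM with lipids, against 17.9, 17.6 and 14 CPM without lipids, a change of -0.82 (edgeR adjusted p = 0.00121, SE 0.12). Both encode neutrophil attractants that act through CXCR2, as processed CXCL7 does. For both the libraries with lipids lay below those without, as for 15.8% of all tested genes. Mthfd2l, an enzyme of folate metabolism at 162.6 kb, was at 0.03 (edgeR adjusted p = 0.894). Near F13a1, 1 of 3 other genes was tested, Fars2, at -0.20 (edgeR adjusted p = 0.142).

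**Figure D4:**
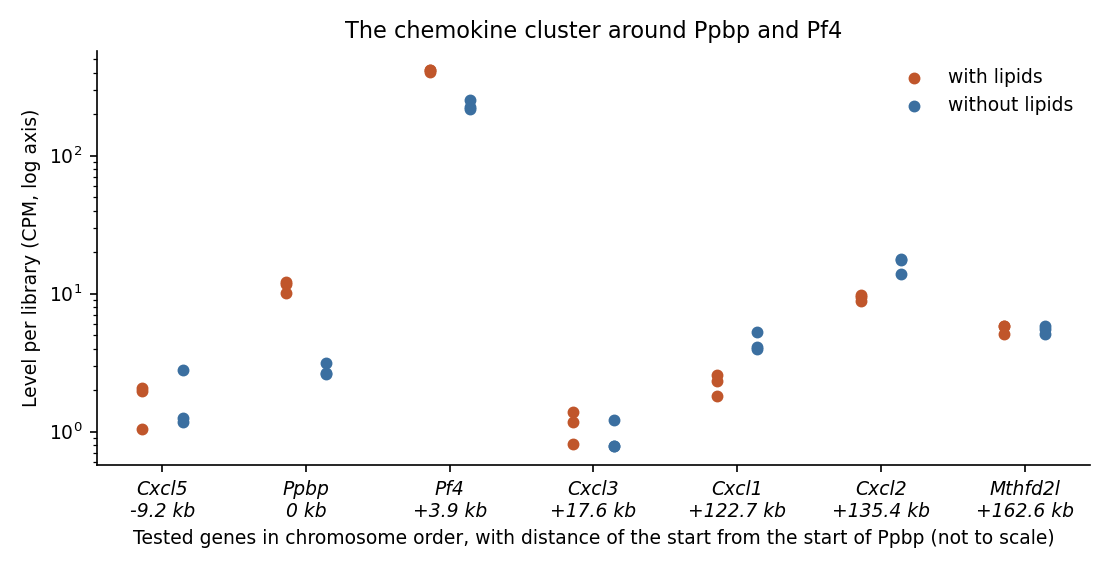
Level per library in CPM (log axis) of the 7 tested genes within 250 kb of Ppbp and Pf4, in chromosome order with the distance of each start from that of Ppbp, libraries with lipids to the left. Only the order of groups within a gene can be read, since CPM is not per length: with lipids Ppbp and Pf4 are higher, Cxcl1 and Cxcl2 lower, and Cxcl5, Cxcl3 and Mthfd2l overlap.

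Over all 12 listed CXC chemokines besides Ppbp and Pf4, 8 were tested, 0 rose and 2 fell, the same Cxcl1 and Cxcl2 (median -0.08). Among all tested genes 4.58% rose and 6.87% fell. The edgeR counts at an unadjusted p of 0.05 were 1 higher and 3 lower, and DESeq2 and limma-voom gave 0 higher. Cxcl14, at 0.56 (edgeR adjusted p = 0.116), was called higher with the filter off (0.57, edgeR adjusted p = 0.00312) and when replicate 2 without lipids was left out (0.85, edgeR adjusted p = 0.0334). Cxcl16 was called lower when replicate 1 without lipids was left out (-0.27, edgeR adjusted p = 0.00635). Per length, Pf4 lay above all 12 in both groups, with Cxcl16, which overlaps Zmynd15 on the other strand, next at 68.2 ± 2.66 with lipids and 78.3 ± 8.74 without lipids. Ppbp lay above Cxcl2 with lipids, at 10.5 against 4.52 ± 0.245, and below it without lipids, at 2.59 against 7.98 ± 1.06 (CPM per 1000 bases of exon, SD, n = 3 each).

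Receptors and binding partners of the 2 chemokines differed widely in level. Cxcr2, the CXCL7 receptor, had 1 count with lipids and 3 without lipids over 3 libraries each, and Cxcr1 5 and 6. Of 11 listed genes 6 were tested, 2 rose and 1 fell (median -0.21), beside 4.58% and 6.87% of all tested genes. Cxcr3, a receptor for which human CXCL4 is a ligand, averaged 3.82 ± 0.193 CPM with lipids and 5.59 ± 0.752 CPM without lipids (SD, n = 3 each), a change of -0.54 (edgeR adjusted p = 0.0295) that was lost without any 1 library with lipids or replicate 2 without lipids. Ccr1, through which CXCL4 acts on human monocytes, rose by 0.51 (edgeR adjusted p = 0.00427). Itgam, the alpha chain of the integrin Mac-1, rose by 0.56 (edgeR adjusted p = 7.72e-05), while its beta chain Itgb2 was at -0.21 (edgeR adjusted p = 0.0529). The lipoprotein receptor Lrp1, which binds human CXCL4, was at -0.26 (edgeR adjusted p = 0.0791). Lower genes of the list numbered 4 when replicate 1 without lipids was left out and 3 when its replicate 3 was, 4 with the filter off and 2 with DESeq2 or limma-voom.

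All 16 listed proteoglycans and heparan sulfate enzymes, which make the sugars that CXCL4 binds, were tested. Of these, 2 rose and 2 fell (median -0.12), beside 4.58% and 6.87% of all tested genes. Vcan, the proteoglycan versican, rose by 0.64 (edgeR adjusted p = 0.0006) and Hs2st1, a heparan sulfate sulfotransferase, by 0.26 (edgeR adjusted p = 0.0361), a call lost in 5 of 6 fits with 1 library left out. Sdc1, syndecan 1, changed by -0.94 (edgeR adjusted p = 4.23e-05) and Ndst1, which opens chains to further sulfation, by -0.55 (edgeR adjusted p = 0.000322). Leaving out replicate 1 without lipids gave 7 that fell, leaving out its replicate 3 gave 4, and 5 fell with the filter off and 4 with DESeq2.

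For F13a1, partners and relatives were sparse. F13b, the carrier chain of plasma factor XIII, had 0 counts in all 6 libraries. Of 15 transglutaminases, partners and substrates 6 were tested, 0 rose and 1 fell (median 0.02), beside 4.58% and 6.87% of all tested genes. Also, 0 rose at an unadjusted edgeR p of 0.05 or with DESeq2 or limma-voom. The 1 that fell was Spp1, osteopontin, at -0.32 (edgeR adjusted p = 0.0311), which shares exon bases with Gm42793 on its own strand, a call lost with library totals alone, without any 1 library with lipids and without replicate 2 without lipids, while 2 fell in the refit lacking replicate 1 without lipids. Tgm2, tissue transglutaminase, was at -0.18 (edgeR adjusted p = 0.249), and overlaps Rprd1b on the other strand. Per length Tgm2 stood at 24.0 ± 2.06 with lipids and 27.2 ± 3.42 without lipids (CPM per 1000 bases of exon, SD, n = 3 each), above F13a1 in both groups. Fn1, the substrate fibronectin, was at -0.04 (edgeR adjusted p = 0.68).

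Other genes of coagulation and fibrinolysis moved both ways. Of 27, 16 were tested, 2 rose and 2 fell (median -0.12), beside 4.58% and 6.87% of all tested genes. F7 and F10, which encode proteases of the clotting cascade made mostly by liver, were low and fell. F10 had 0.769, 0.769 and 0.796 CPM with lipids, against 2.47, 2.02 and 2.67 CPM without lipids, a change of -1.62 (edgeR adjusted p = 0.000574, SE 0.20). F7 had 0.452, 0.346 and 0.655 CPM with lipids, against 1.68, 1.65 and 1.38 CPM without lipids, a change of -1.70 (edgeR adjusted p = 0.00218, SE 0.27). Both groups of libraries were fully separate for each, in the direction opposite to F13a1. The same order, lower with lipids, was held by 15.8% of all tested genes. Pros1, the anticoagulant protein S, rose by 0.51 (edgeR adjusted p = 0.00218), and Serpinb2, an inhibitor of plasminogen activators, by 0.96 (edgeR adjusted p = 0.00993), a call lost without replicate 2 with lipids. F3, tissue factor, had 27 and 21 counts over 3 libraries each with and without lipids and lay under the filter.

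F13a1 and Pf4 are also named among the genes of resident-type tissue macrophages in mice. Of 20 others of that kind 15 were tested, 4 rose and 1 fell (median 0.32), beside 4.58% and 6.87% of all tested genes. Hpgd, which inactivates prostaglandins, had 103.7, 126.6 and 108.5 CPM with lipids, against 47.5, 45.5 and 61.0 CPM without lipids, a change of 1.14 (edgeR adjusted p = 0.00011, SE 0.11). Cd163 rose by 0.88, the mannose receptor gene Mrc1 by 0.75 and the transcription factor gene Maf by 0.34, with edgeR adjusted p = 4.44e-05, 1.49e-05 and 0.00342. Ninj1, a mediator of membrane rupture, changed by -0.71 (edgeR adjusted p = 0.00488). Lyve1, which names one such population, had 34 counts with lipids and 8 without lipids over 3 libraries each and lay under the filter, and Timd4 had 2 and 2. Leaving out replicate 3 without lipids gave 8 that rose, and turning the filter off gave 9. Part of these results was known when the list was made, so they are not independent of the choice. A list of 16 glucocorticoid receptor targets was included because these hormones raise F13A1 in human monocytes. Of these, 15 were tested, 2 rose and 0 fell (median 0.08), beside 4.58% and 6.87% of all tested genes. At an unadjusted edgeR p of 0.05, 4 rose and 0 fell, and 0 fell with DESeq2 or limma-voom. The 2 that rose were Zbtb16 at 0.68 and Pdk4 at 0.72 (edgeR adjusted p = 0.0271 and 0.0258). Each call was lost in 4 of 6 fits with 1 library left out, and that for Pdk4 also with DESeq2. Across those fits 0 to 4 were called higher, and 2 were called lower in that lacking replicate 1 without lipids. Fkbp5 and Tsc22d3, chosen after their values were seen, were at 0.33 and -0.12 (edgeR adjusted p = 0.228 and 0.50).

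**Figure D5:**
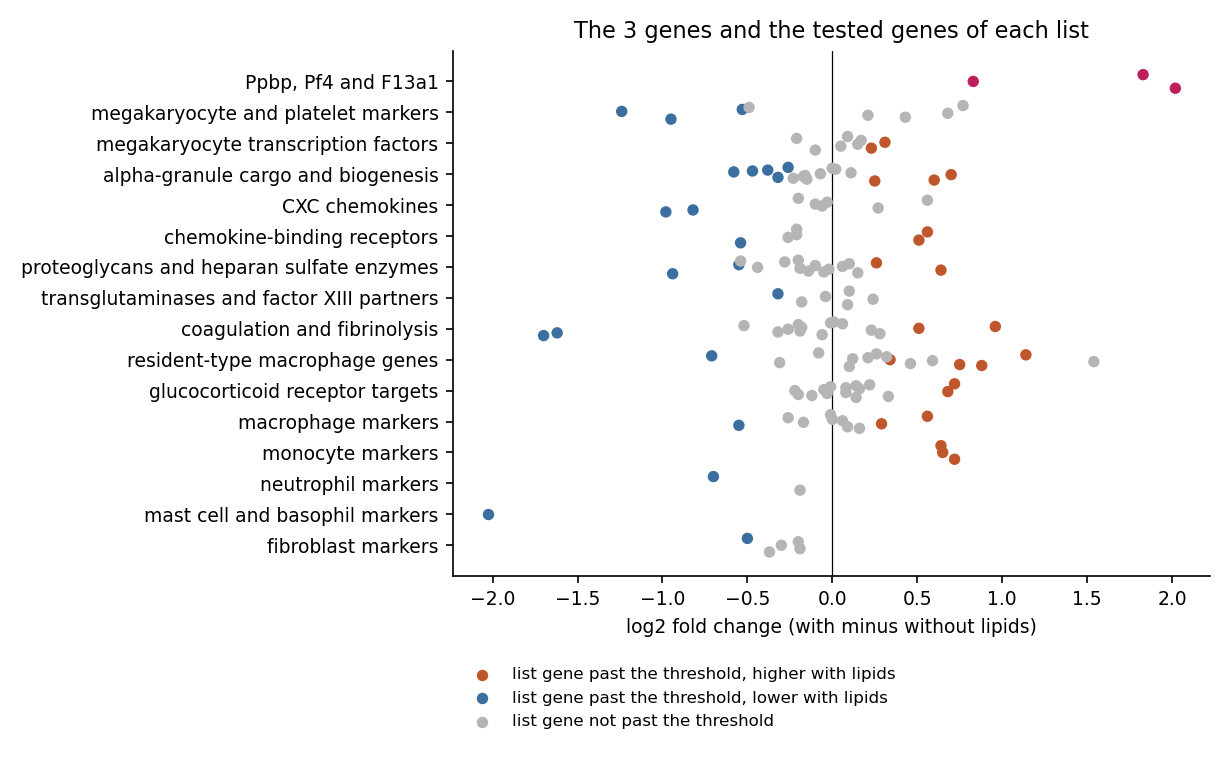
Log2 fold change (with minus without lipids) of Ppbp, Pf4 and F13a1, in the top row, and of the tested genes of each list, coloured by whether they passed the edgeR threshold. The 3 genes lie at 2.02, 0.83 and 1.83, all 3 tested monocyte markers lie between 0.64 and 0.72, and each of the other rows with more than 1 point holds points at or below 0.

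Markers of cell types that marrow cultures could hold were set beside these results. For comparison, 4.58% of all tested genes rose and 6.87% fell. All 3 tested monocyte markers of 8 rose, with Ccr2 at 0.72, Vcan at 0.64 and Plac8 at 0.65 (edgeR adjusted p = 0.000945, 0.0006 and 0.0297), and the call for Plac8 was lost with DESeq2 and in 5 of 6 fits with 1 library left out. The list summed to 132.2 to 139.3 CPM with lipids and 82.7 to 87.3 CPM without lipids, but Ly6c2, a defining gene of inflammatory monocytes, had 4 and 2 counts over 3 libraries each. The part of monocyte-like cells in the levels of Ppbp, Pf4 and F13a1 was not tested. Among macrophage markers Itgam and Fcgr1 (0.29, edgeR adjusted p = 0.00815) rose and Cd68 fell (-0.55, edgeR adjusted p = 0.000306), with a median of 0.03 over the 10. The call for Fcgr1 was lost when replicate 2 with lipids was left out (edgeR adjusted p = 0.0724), and 3 markers fell when replicate 1 without lipids was left out or with the filter off. Of 12 neutrophil markers 2 were tested and Csf3r fell (-0.70, edgeR adjusted p = 0.00947), with the list at 31.0 to 36.3 CPM with lipids and 41.3 to 53.8 CPM without lipids, and Ly6g at 0 counts. Of 10 mast cell and basophil markers 1 was tested, Kit, which fell (-2.03, edgeR adjusted p = 1.03e-05). The list summed to 2.85 to 3.17 CPM with lipids and 9.79 to 11.2 CPM without lipids. Most of it was Kit, with means of 2.39 and 9.82 CPM. Over 3 libraries each with and without lipids, Mcpt8 had 20 and 13 counts, Hdc 18 and 12 and Cpa3 5 and 8. Fcer1a, Ms4a2 and 4 others had 0 counts. Of 6 fibroblast markers 5 were tested and Col3a1 fell (-0.50, edgeR adjusted p = 0.014), with the list at 113.9 to 121.8 CPM with lipids and 118.5 to 162.5 CPM without lipids. No erythroid marker of the 12, 1 of which matched no identifier, and no lymphocyte marker of the 8 passed the filter. The erythroid list summed to at most 0.407 CPM with lipids and 0.643 CPM without lipids, and the lymphocyte list to at most 0.562 CPM with lipids and 0.318 CPM without lipids. The calls for Csf3r and Col3a1 were lost without replicate 1 or 2 with lipids, and 3 fibroblast markers fell when replicate 1 without lipids was left out.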

How the data were processed

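RNA from macrophages was sequenced as 6 libraries after stranded poly(A) library preparation, per the labels' protocols. The authors deposited raw counts per Ensembl gene, 1 library per table. Tools listed in the submitters' processing notes are HTSeq, TopHat2 2.1.0 and DESeq2, on GRCm38.p4, without roles. The sources used here give neither strand setting nor annotation release. Of 46603 identifiers 46091 matched GENCODE M21 (GRCm38), and 0 rows were unassigned reads.

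Groups came from sample titles. The test was edgeR's two-sided quasi-likelihood F test (edgeR 4.0.16, R 4.3.3) after filterByExpr with a minimum total of 15 and a minimum count of 10 and TMM scaling, with Benjamini-Hochberg adjustment over 12767 genes, threshold 0.05. Standard errors came from the F statistic. CPM used the scaled totals of tested genes, and the likeness used log2 CPM with a prior count of 2. The edgeR steps were tested on simulated data. Replicates differed by more than sampling noise (chi-square per degree of freedom 2.67 to 19.9), so all 6 libraries were kept.

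The members and the 17 gene lists were chosen with earlier results of these data known. Named were the members, the 3 genes nearest to each, tested receptors and neighbours, and list genes past the threshold (at most 6 a list, by p). Other named genes (Gata1, Nfe2, Selp, Fn1 and the like) were chosen after their values were seen. Alternatives were median-of-ratios scaling, library totals alone, no filter, 1 CPM in 3 libraries, DESeq2 1.42.0, limma-voom (limma 3.58.1), a replicate block and each library left out in turn. Protein sequences were not used here, and some list genes are counted but not reported by name.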

Additional observations from a re-analysis of the deposited data

How the results depend on the processing

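The log2 fold changes of Ppbp, Pf4 and F13a1 moved by less than 1 SD between replicates in all 39 refits. With each library left out in turn they ran from 1.97 to 2.11 for Ppbp, 0.79 to 0.89 for Pf4 and 1.76 to 2.0 for F13a1. Over all genes, 585 higher and 877 lower calls became 1241 higher with library totals alone and 1009 higher without the filter, and ran from 219 to 1566 higher and 423 to 1975 lower over the refits without 1 library. The causes were not tested. With the replicate block 715 were higher and 937 lower, Cxcl14 among the higher (0.57, edgeR adjusted p = 0.044). Same-numbered libraries of the 2 groups had correlations of deviations from their group means of -0.01, -0.09 and 0.18. Libraries with different numbers ran from -0.13 to 0.16. The labels do not say whether the numbers pair libraries, and these values cannot decide it. The count of platelet markers higher with lipids was 1 without the filter and 0 or 1 over the refits without 1 library (Selp in each case). Among other list genes past the threshold, the call was kept in 475 of 533 refits, lost in 58 and reversed in 0. Counts per list stayed within 1.5 times in 380 of 442 refits.

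Depth limits Ppbp and F13a1, with 50 to 79 counts in each library without lipids, and genes under the filter. No library without conditioned medium was used, so a level cannot be placed against a baseline. The annotation release behind the counts is not known here, and the strand setting touches the genes named with an overlap on the other strand. Spp1 overlaps a gene on its own strand, which no strand setting separates.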
